A study of Homo sapiens with 4 samples.

Results

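Occludin siRNA followed by LPS was compared with LPS alone in BEAS-2B, an immortalised cell line derived from human bronchial epithelium. The members were the 2 of 4 RNA sequencing libraries whose labels name these treatments. One came from cells given a small interfering RNA against occludin (OCLN) for 24 h and then bacterial lipopolysaccharide (LPS) for 2 h, here siOCLN+LPS, and the other from cells given LPS for 2 h, here LPS. The remaining 2 libraries, an untreated control and a library labelled wtOCLN+LPS, for wild-type occludin transfected over 24 h before the same 2 h of LPS, are shown beside them. All 4 groups carry a wild-type genotype label, and each group held 1 library.

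The comparison addresses what changes in LPS-stimulated airway cells when occludin is lowered. The labels of the LPS and control libraries name no transfection and no control siRNA, so that the siRNA and the transfection that delivered it cannot be told apart. The sources used here give neither the doses nor the siRNA sequence. A single library stood for each group, so no replicate check and no p-value could be had, and every statement is about these libraries.

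Occludin is a membrane protein with 4 transmembrane segments of the MARVEL family that sits in the tight junction, the seal between neighbouring epithelial cells. A small interfering RNA is loaded into an Argonaute protein, which cuts messenger RNA of matching sequence. Double-stranded RNA and DNA that reach the cytosol can also be read by innate sensors, which switch on interferon genes through transcription factors of the IRF and STAT families. LPS is sensed by TLR4 with CD14 and LY96 and drives NF-kB targets in airway epithelium.

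Expression is given as CPM, the count of a gene scaled to a library total of 1e+06 counts. Totals ran from 13867494 counts in LPS up to 17500031 (labelled wtOCLN+LPS). Each library had 12887 to 13306 genes at 1 CPM or more. A gene at 0 counts could still stand at up to 0.171 to 0.216 CPM, the level of 3 counts. Where 4 values are printed for a gene, their order is control, LPS, siOCLN+LPS, then the library labelled wtOCLN+LPS. Folds are ratios of CPM with exact 95% Clopper-Pearson intervals in parentheses, and these cover counting error only.

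Of 13505 genes that reached 1 CPM in at least 1 of the libraries, 449 lay at least 2-fold higher in siOCLN+LPS, which is 3.32% of those tested, and 530 at least 2-fold lower, which is 3.92%. These calls used log2((CPM + 1)/(CPM + 1)), a scale that understates the change of low genes. Past 4-fold there were 48 higher and 37 lower genes, and past 8-fold 10 and 5. Over all tested genes the median log2 ratio was -0.13, with the 5th percentile at -0.92 and the 95th at 0.81. Scaling moved that centre. With TMM factors the median became 0.01 and the calls 601 higher and 378 lower, so that 61.4% of called genes were higher, against 45.9% with library totals. Median ratio scaling gave 60.7% and upper quartile scaling 57.8%. The log2 ratio also moved with the transcript. Its median fell from 0.02 in the shortest of 5 equal classes of transcripts to -0.21 in the longest, and was -0.25 in the class lowest in GC content and -0.00 in the highest.

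**Figure D1:**
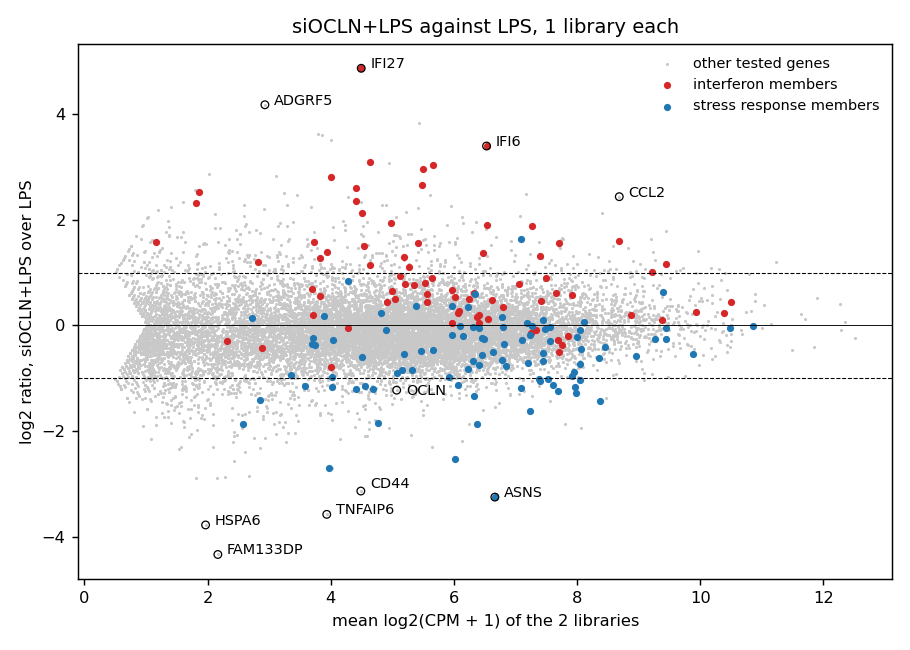
Log2 ratio of siOCLN+LPS over LPS (vertical axis) against the mean log2(CPM + 1) of both libraries (horizontal axis), 1 point per tested gene, with members of the interferon lists in red and of the stress response lists in blue. The dashed lines mark 2-fold; 31 of 77 interferon members lie above the upper line and 25 of 94 stress response members below the lower one.

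The targeted gene was lower in the siRNA library. OCLN stood at 50.4 CPM in LPS and 21.0 in siOCLN+LPS, beside 55.4 in control and 29.7 in the library labelled wtOCLN+LPS. It was highest in the untransfected libraries, and the library labelled wtOCLN+LPS, whose label names added occludin, also lay below them. Against LPS, OCLN was 2.40-fold (2.11 to 2.73) lower in siOCLN+LPS. Part of OCLN is duplicated elsewhere in the genome, and counts from the duplicate cannot be told apart here. From the OCLN counts an exchange of labels between the transfected libraries cannot be told apart from correct labels, and a swap would change what each siOCLN+LPS value stands for. No direction of raised occludin is read from the library labelled wtOCLN+LPS.

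The epithelial label was checked against 7 markers. Simple-epithelial keratins and E-cadherin were present, with KRT7 at 777, 742, 1205 and 1305 CPM and CDH1 at 45.6, 42.5, 105 and 104 CPM. KRT5, a basal cell keratin, was at 18.9, 22.4, 19.1 and 19.9 CPM. KRT19 was low in control and LPS, and its values are given with those of KRT8 and KRT18 among the keratins below. EPCAM, an epithelial adhesion molecule, was near the filter at 2.01, 2.67, 1.26 and 1.60 CPM, and the mesenchymal filament gene VIM was high in all libraries at 1519.7, 1469, 989 and 955 CPM. Of the lists for other cells, 3 of 10 fibroblast, 3 of 10 ciliated, 2 of 10 secretory, 7 of 12 alveolar, 1 of 11 endothelial and 1 of 14 leukocyte markers passed 1 CPM in either library. The defining markers PTPRC, FOXJ1 and SCGB1A1 were at 0 counts in both libraries compared. In LPS and siOCLN+LPS the list sums below cover tested members only. For control and the library labelled wtOCLN+LPS they cover every listed member, so a list sum is not compared between these pairs. Summed levels were 361, 482, 802 and 811 CPM for the alveolar list, of which CAV1, which many cell types express, made up 312, 431, 679 and 675 CPM. They were 555, 446, 658 and 625 CPM for the ciliated list, of which the widely expressed tubulin TUBB4B made up 548, 441, 654 and 620.3 CPM. They were 152, 129, 170.1 and 179 CPM for the fibroblast list, 6.23, 10.24, 19.8 and 19.1 CPM for the secretory list, and 19.1, 16.6, 4.98 and 8.80 CPM for the leukocyte list, mostly CD68. All 11 endothelial markers summed to 3.52 CPM in control and 2.06 in the library labelled wtOCLN+LPS. The 1 that was tested stood at 1.08 CPM in LPS and 0.744 in siOCLN+LPS. The part of these other-cell markers in the results was not tested.

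Interferon-response genes formed the group with the most members raised in siOCLN+LPS. Interferon binds its receptor and activates a complex of STAT proteins and IRF9, which occupies sites built from a repeated GAAA in the promoters of antiviral genes. Of 77 tested members of 8 lists, 31 were at least 2-fold higher and none was lower, with a median log2 ratio of 0.70 against -0.13 over all genes. Over all tested genes 3.32% were higher. The lists hold genes known to answer to interferon, and they were chosen with the rise already known, so the count is a description. Of those 31 members, 30 lay within 2-fold of each other in control and LPS, and 30 were higher still in the library labelled wtOCLN+LPS.

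The promoters of 4 of the raised genes are shown because each carries the IRF half-site pair GAAANNGAAA, searched on both strands in the 250 bases before the start in RefSeq GRCh38.p14 and capitalised here with overlapping matches joined. All sequences are written 5′ to 3′ on the gene's strand. The IFI27 stretch is chr14:94110608-94110670 on the plus strand, 128 to 66 bases before the start. The IFI6 stretch is chr1:27672256-27672368 on the minus strand, 176 to 64 bases before the start, and holds 3 matches. For ISG15 the stretch is chr1:1013364-1013419 on the plus strand, 133 to 78 bases before the start, and for IFIT1 chr10:89392487-89392549 on the plus strand, 136 to 74 bases before the start.
IFI27: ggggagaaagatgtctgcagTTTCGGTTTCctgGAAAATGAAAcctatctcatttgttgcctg
IFI6: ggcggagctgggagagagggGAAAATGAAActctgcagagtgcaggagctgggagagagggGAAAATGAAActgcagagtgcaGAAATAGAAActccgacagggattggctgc
ISG15: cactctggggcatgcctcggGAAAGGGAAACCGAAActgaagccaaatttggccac
IFIT1: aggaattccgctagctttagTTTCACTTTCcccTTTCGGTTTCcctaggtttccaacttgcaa
The letters read TTTC for GAAA where the match lies on the other strand, as in both matches of IFIT1. A match was found in 14 of the 25 raised members with a promoter in the table (56.0%), in 27 of 61 tested interferon members (44.3%), in 31 of 350 genes raised 2-fold (8.86%), in 5 of 385 lowered genes (1.30%) and in 247 of 10677 tested genes (2.31%). A match describes the sequence and not a bound site.

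The highest log2 ratio of the comparison at 5 CPM or more, with the pseudocount of 1 CPM, was that of IFI27, a mitochondrial protein induced by type I interferon, at 3.17 CPM in LPS and 121 in siOCLN+LPS, beside 4.97 in control and 389 in the library labelled wtOCLN+LPS. It was 38.1-fold (28.3 to 52.6) higher in siOCLN+LPS than in LPS. IFI6, an inhibitor of apoptosis and of viral replication whose promoter holds 3 matches above, was at 27.3, 27.5, 299 and 705 CPM, 10.9-fold (9.81 to 12.1) higher. Both untransfected libraries sat low for each gene and both transfected libraries high.

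The dynamin-like GTPase MX1, which traps viral nucleoproteins, stood at 18.2, 16.7, 144 and 488 CPM, a difference of 8.62-fold (7.53 to 9.91) from LPS. Its paralogue MX2 was at 0.629, 0.577, 6.87 and 41.7 CPM. RSAD2, encoding viperin, which makes a chain-terminating nucleotide, was at 0.818, 0.505, 7.72 and 40.7 CPM. RSAD2 rested on 7 counts in LPS and 135 in siOCLN+LPS, and was 15.3-fold (7.23 to 38.8) higher. The list of MX and other antiviral effectors had 17 of 26 members higher and none lower, with a median log2 ratio of 1.38.

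Among other effectors, XAF1, a pro-apoptotic interferon target, was at 11.9, 7.64, 51.4 and 171 CPM, and IFI44L, a gene of the IFI44 family, at 20.01, 16.8, 111 and 259.8 CPM. SAMHD1, which degrades nucleotides needed for reverse transcription, was at 54.9, 47.4, 179 and 272 CPM and 3.78-fold (3.47 to 4.12) higher. BST2, the tether that holds budding virions, was at 62.8, 54.4, 142 and 249.9 CPM and 2.61-fold (2.41 to 2.84) higher. Members of the same list that lay within 2-fold included SP100, a nuclear body protein, at 63.2, 63.9, 98.4 and 176 CPM, IFI16, a DNA sensor, at 64.8, 60.4, 73.2 and 108 CPM, and PARP14 at 126, 145, 199 and 354 CPM.

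The oligoadenylate synthetases bind double-stranded RNA and make a nucleotide messenger of antiviral defence. Of 5 tested genes in their list 4 were higher, with a median log2 ratio of 1.56. OAS2 was at 7.50 CPM in LPS and 71.8 in siOCLN+LPS, beside 8.06 in control and 254 in the library labelled wtOCLN+LPS, so that siOCLN+LPS lay 9.58-fold (7.83 to 11.8) above LPS. OAS1 was at 7.99, 5.05, 41.6 and 74.9 CPM, 8.24-fold (6.44 to 10.7) higher. OAS3 was at 105, 121, 360.0 and 643 CPM, and OASL, which lacks the enzymatic activity, at 4.09, 3.68, 9.73 and 27.5 CPM.

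The IFIT proteins bind foreign 5′ ends of RNA and the IFITM proteins block fusion of viruses with endosomes. Of 7 genes 6 were higher, with a median of 1.55. IFIT1, shown above, was at 9.31, 8.44, 47.1 and 103 CPM and 5.58-fold (4.59 to 6.83) higher. IFIT3 was at 18.3, 23.9, 72.2 and 133 CPM and IFIT2 at 6.42, 8.15, 21.1 and 35.3 CPM. IFITM1 was at 82.6, 79.6, 295 and 624 CPM, 3.70-fold (3.47 to 3.95) higher, and IFITM3 at 252, 236, 718 and 1118 CPM. IFIT5 was the member that did not reach 2-fold, at 34.3, 34.2, 60.4 and 88.3 CPM. The IFITM genes are close copies of each other, so their separate levels are uncertain.

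ISG15 is a small protein that is attached to others like ubiquitin, through UBA7, UBE2L6 and the HERC ligases, and removed by USP18. ISG15 was at 15.3 CPM in LPS and 125 in siOCLN+LPS, beside 17.6 in control and 343 in the library labelled wtOCLN+LPS, 8.20-fold (7.12 to 9.49) higher in siOCLN+LPS. HERC6 was at 8.87, 6.63, 21.9 and 55.7 CPM, 3.29-fold (2.62 to 4.18) higher. The enzymes that complete the cycle lay within 2-fold, with UBA7 at 29.3, 27.0, 47.1 and 60.3 CPM, UBE2L6 at 55.2, 52.9, 76.96 and 119 CPM and USP18 at 10.4, 9.16, 15.4 and 39.4 CPM. All 7 members of this list were above 0 on the log2 scale, and 2 of 7 passed 2-fold.

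Upstream of these effectors the differences were smaller. None of 7 tested RNA sensors passed 2-fold in either direction, with a median log2 ratio of 0.20. IFIH1, which senses long double-stranded RNA, was at 35.7, 30.4, 52.7 and 97.1 CPM, 1.73-fold (1.54 to 1.95) higher. DDX58, encoding RIG-I, was at 20.3, 39.6, 54.0 and 90.9 CPM, and EIF2AK2, the RNA-activated kinase PKR, at 79.9, 78.6, 90.6 and 151 CPM. TLR3, the endosomal sensor of double-stranded RNA, was the lowest at 20.2, 20.2, 11.2 and 16.6 CPM, 1.80-fold (1.49 to 2.17) lower.

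Of 9 signal transducers only IRF1, a transcription factor that NF-kB induces, passed 2-fold, at 89.1, 463, 1036 and 1009 CPM, with both LPS-treated transfected libraries above LPS alone. With TMM scaling 3 of 9 passed. IRF9 was at 29.3, 24.3, 47.3 and 80.5 CPM, 1.94-fold (1.71 to 2.21) higher. STAT2 was at 93.5, 82.4, 85.3 and 121 CPM and the receptor chain IFNAR1 at 82.9, 89.5, 97.6 and 94.9 CPM. In MHC class I and antigen processing 1 of 15 genes passed 2-fold, the immunoproteasome subunit PSMB10, at 15.2, 15.8, 36.0 and 41.1 CPM, and 13 of 15 lay above 0. With the trend of length and GC removed none of the 15 passed. The peptide transporter TAP1 was at 123, 162, 249 and 291 CPM, and HLA-E lay on the other side at 237, 248, 175 and 219.9 CPM.

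Most interferon genes themselves were at or near 0. Of 7 interferon genes 1 was tested, IFNE, an epithelial type I interferon, at 7.99, 7.57, 5.38 and 3.14 CPM and 1.41-fold (1.06 to 1.88) lower. IFNB1, the interferon that cells first make after sensing RNA, had 0 counts in both libraries compared, which allows a level of up to 0.172 CPM in siOCLN+LPS. IFNL1 likewise had 0 counts in both. The chemokines CXCL10 and CXCL11, which answer to interferon and recruit T cells, were low but different. CXCL10 was at 0.433 CPM in LPS and 7.44 in siOCLN+LPS, beside 0.189 in control and 11.1 in the library labelled wtOCLN+LPS, on 6 and 130 counts in the libraries compared, 17.2-fold (7.69 to 47.7) higher. CXCL11 went from 1 to 30 counts, a ratio of 23.8-fold with an interval from 3.96 to 971. TNFSF10, the death ligand TRAIL and another interferon target, was at 2.96, 3.61, 16.02 and 23.9 CPM, 4.44-fold (3.28 to 6.13) higher.

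**Figure D2:**
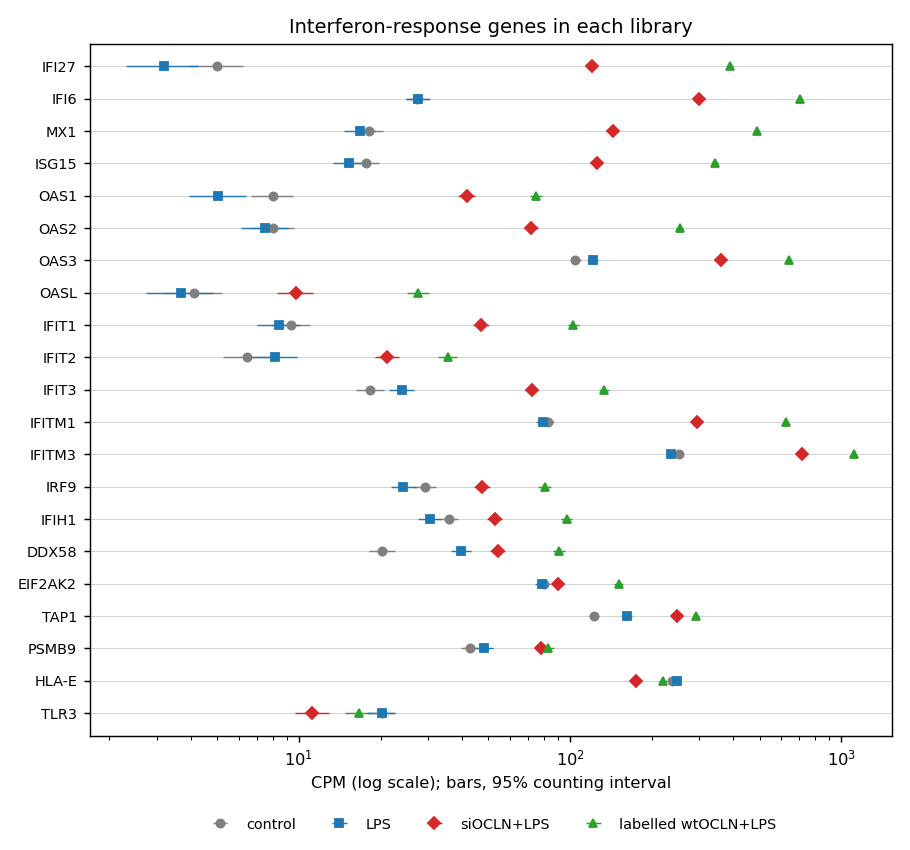
CPM on a log scale (horizontal axis) of 21 interferon-response genes (rows) in the 4 libraries, with bars for the exact Poisson 95% counting interval. For effectors such as IFI27 and MX1 control and LPS lie together at the left, siOCLN+LPS lies to the right and the library labelled wtOCLN+LPS furthest right, while EIF2AK2 lies close in control, LPS and siOCLN+LPS and TLR3 lies lower in siOCLN+LPS.

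The opposite side of the comparison held the amino acid response. When amino acids run short or the endoplasmic reticulum is stressed, kinases phosphorylate eIF2 alpha and translation of ATF4 rises, and ATF4 switches on genes that make, import and charge amino acids. Of 94 tested members of 6 lists, 25 were at least 2-fold lower in siOCLN+LPS and 1 was higher, with a median log2 ratio of -0.53 against -0.13 over all genes, of which 3.92% were lower. With TMM scaling 19 members were lower. These lists too were chosen with the fall known. All 25 lowered members lay within 2-fold of each other in control and LPS, and the library labelled wtOCLN+LPS was below siOCLN+LPS for 17 of them and above it for 8.

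Short promoter stretches of 3 lowered genes are shown for the C/EBP-ATF element, the letters TGATGNAA, to which ATF4 binds as a dimer with C/EBP proteins. They are chr7:97872449-97872496 on the minus strand for ASNS, 88 to 41 bases before the start, chr1:212565196-212565243 on the plus strand for ATF3, 211 to 164 bases before the start, and chr12:24949122-24949169 on the minus strand for BCAT1, 68 to 21 bases before the start, all in RefSeq GRCh38.p14 with the match in capitals.
ASNS: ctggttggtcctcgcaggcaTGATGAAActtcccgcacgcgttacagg
ATF3: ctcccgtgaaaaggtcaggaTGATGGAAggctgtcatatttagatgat
BCAT1: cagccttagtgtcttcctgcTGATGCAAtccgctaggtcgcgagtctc
The letters were found, on either strand, in 4 of 18 lowered members with a promoter in the table (22.2%), in 9 of 74 tested stress response members (12.2%), in 13 of 385 lowered genes (3.38%), in 7 of 350 raised genes (2.00%) and in 144 of 10677 tested genes (1.35%).

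ASNS, asparagine synthetase and a classic ATF4 target with the element shown above, stood at 312 CPM in LPS and 31.9 in siOCLN+LPS, beside 329 in control and 26.7 in the library labelled wtOCLN+LPS. Control and LPS were alike, and both transfected libraries were low. The difference between the libraries compared was 9.77-fold (8.94 to 10.7) lower. Among the other genes of amino acid synthesis, CTH, which makes cysteine from cystathionine, was at 10.5, 10.4, 2.12 and 2.40 CPM, and CBS, the step before it, at 115, 98.5, 44.3 and 43.3 CPM. BCAT1, the branched-chain aminotransferase, was at 36.0, 33.9, 14.8 and 12.7 CPM. In that list 4 of 9 genes were lower, with a median of -0.85. CBS fell short of 2-fold with TMM scaling and BCAT1 with the trend of length and GC removed.

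Serine and one-carbon synthesis was lower at its first steps. PHGDH, which diverts a glycolytic intermediate to serine, was at 264 CPM in LPS and 84.6 in siOCLN+LPS, beside 279.9 in control and 68.4 in the library labelled wtOCLN+LPS, 3.12-fold (2.93 to 3.31) lower. PSAT1, the next enzyme, was at 186, 158, 42.3 and 35.4 CPM, 3.73-fold (3.43 to 4.06) lower. PSPH, the last enzyme of serine synthesis, was at 18, 17.0, 13.9 and 12.1 CPM, within 2-fold. In the mitochondrial folate branch, ALDH1L2 was at 58.6, 50.3, 13.3 and 9.26 CPM, MTHFD2 at 388, 374, 167 and 162 CPM and SHMT2 at 275, 261, 129 and 122 CPM. In all, 5 of 10 genes of the list were lower and none was higher, with a median of -0.77, and with TMM scaling 4, without SHMT2.

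Import and charging of amino acids moved less evenly. SLC7A11, the cystine importer, was at 154 CPM in LPS and 26.1 in siOCLN+LPS, beside 168 in control and 24.6 in the library labelled wtOCLN+LPS, 5.92-fold (5.35 to 6.56) lower. Its heavy chain partner SLC3A2 was at 534, 540.0, 201 and 212 CPM, 2.69-fold (2.58 to 2.80) lower. SLC7A5, the leucine importer that shares this partner, was at 1725, 1866, 1857 and 1909.9 CPM. For SLC7A5 the interval of LPS over siOCLN+LPS was 0.989 to 1.02. The arginine importer SLC7A1 was at 375, 378, 183 and 181 CPM, 2.06-fold (1.97 to 2.15) lower. The transporter list had 3 of 12 lower, and with TMM scaling 2, without SLC7A1. Of 20 aminoacyl-tRNA synthetases, 5 were lower and none higher, with a median of -0.44, and with TMM scaling 3 were lower. AARS, which charges the alanine tRNA, was at 414, 391, 161 and 150.4 CPM, 2.43-fold (2.32 to 2.55) lower, and SARS, for serine, at 345, 316, 133 and 127 CPM. YARS was at 216, 205, 89.8 and 84.6 CPM. VARS, for valine, lay on the other side at 112, 103, 115 and 115 CPM.

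Regulators of this response were lower in 6 of 20 tested genes and higher in 1. NUPR1, a stress-induced chromatin protein, was at 39.1 CPM in LPS and 5.21 in siOCLN+LPS, beside 48.5 in control and 4.57 in the library labelled wtOCLN+LPS, 7.51-fold (6.002 to 9.48) lower. DDIT3, encoding the death-promoting factor CHOP, was at 11.1, 10.8, 3.43 and 5.54 CPM, 3.15-fold (2.32 to 4.32) lower. TRIB3, a pseudokinase that feeds back on ATF4, was at 209, 126, 49.5 and 47.0 CPM, and ATF3, a factor induced by ATF4, at 27.8, 38.1, 15.9 and 18.3 CPM. SESN2, which signals leucine shortage to mTORC1, was at 15.9, 16.7, 7.04 and 8.23 CPM. ATF4 itself, which is controlled mainly through translation, was at 402, 403, 302 and 300.1 CPM, 1.34-fold (1.29 to 1.39) lower and within 2-fold. Not every target moved this way. CHAC1, which degrades glutathione, was at 4.85, 5.26, 5.95 and 5.54 CPM, and DDIT4, an inhibitor of mTORC1 that also answers to hypoxia and glucocorticoids, was at 113, 76.3, 241 and 240.1 CPM, 3.16-fold (2.95 to 3.38) higher.

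Few endoplasmic reticulum chaperones, the targets of the ATF6 and XBP1 arms, passed 2-fold, but most lay below 0 on the log2 scale. Of 23 tested genes 2 were lower, DNAJB9, a co-chaperone of the lumen, at 30.1, 31.2, 13.0 and 16.2 CPM, and ERN1, the sensor IRE1, at 13.2, 23.3, 9.84 and 9.14 CPM. In the list 20 genes were below 0 and 3 above, and the median was -0.38 against -0.13 over all genes, of which 3.92% were lower. HSPA5, the lumenal chaperone BiP, was at 654, 605, 403 and 456 CPM, 1.503-fold (1.46 to 1.55) lower. CALR, calreticulin, was at 752, 711, 689 and 789 CPM and PDIA4, a disulfide isomerase, at 148, 142, 147 and 157 CPM.

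**Figure D3:**
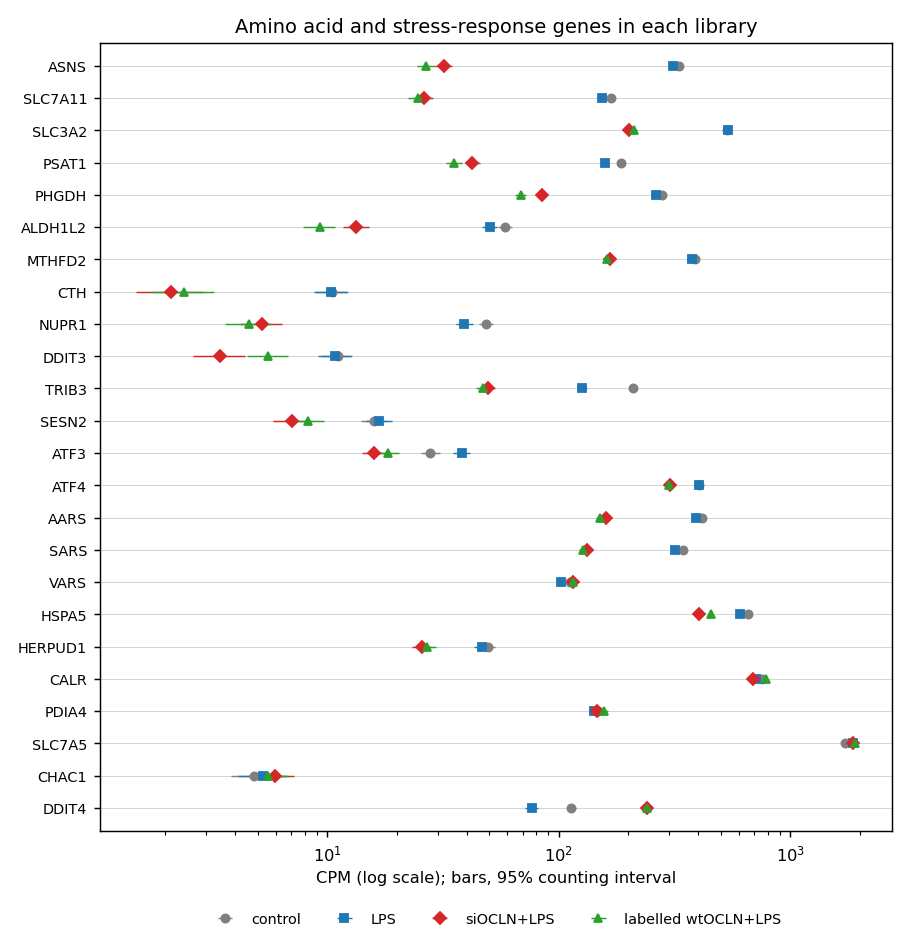
CPM on a log scale (horizontal axis) of 24 amino acid and stress-response genes (rows) in the 4 libraries, with bars for the exact Poisson 95% counting interval. For ASNS, SLC7A11 and NUPR1 control and LPS lie together at the right and both transfected libraries at the left, VARS, CALR and SLC7A5 stay close, and DDIT4 is reversed.

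Heat shock and oxidative stress genes were lower in a few members. Heat shock factor drives cytosolic chaperones when proteins unfold, and NRF2 drives genes against oxidants. HSPA6, a strictly inducible HSP70, went from 187 counts in LPS to 1 in siOCLN+LPS, which is 13.5 CPM in LPS and 0.0572 in siOCLN+LPS, beside 12.6 in control and 0 in the library labelled wtOCLN+LPS. Its ratio was 236-fold, with an interval from 41.8 to 9357, so that the size is poorly set although the direction is clear of counting error. HSPA6 was high in control as well as in LPS. HSPA1B was at 70.2, 77.1, 31.1 and 34.0 CPM, 2.48-fold (2.23 to 2.75) lower, and its near-identical copy HSPA1A at 64.1, 68.7, 48.2 and 46.5 CPM, so the split between this pair is uncertain. The constitutive HSPA8 was at 1317, 1301, 1342 and 1289 CPM. In the list 3 of 23 were lower (13%) and none higher, beside 3.92% and 3.32% over all genes.

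Among 20 NRF2 targets 4 were lower and none higher, beside 3.92% and 3.32% over all genes, with a median of -0.06. With TMM scaling the median was 0.08 and 2 were lower, without SRXN1 and SQSTM1. The medians over all genes were -0.13 with library totals and 0.01 with TMM scaling. HMOX1, heme oxygenase, was at 50.2, 47.7, 19.6 and 19.1 CPM, 2.44-fold (2.14 to 2.79) lower. SRXN1, which repairs peroxiredoxins, was at 125, 121, 54.5 and 46.2 CPM, and SQSTM1, the autophagy receptor p62, at 575, 779, 379.9 and 432 CPM. NQO1, a quinone reductase and a standard NRF2 target, lay on the other side at 143, 149.8, 225 and 219.7 CPM, 1.502-fold (1.42 to 1.58) higher. The members of this list therefore did not move as one.

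Inflammatory genes split by gene rather than by class. Of 117 tested members of 9 lists, 9 were higher and 11 lower, with a median of 0.01. Over all genes 3.32% were higher and 3.92% lower. With TMM scaling the balance turned, to 15 higher and 8 lower. CCL2, the monocyte chemoattractant, was at 176 CPM in LPS and 958 in siOCLN+LPS, beside 2.33 in control and 934 in the library labelled wtOCLN+LPS. It was low in control, intermediate in LPS and high in both transfected libraries, 5.45-fold (5.22 to 5.69) higher in siOCLN+LPS than in LPS. The neutrophil chemokines were nearer to LPS. CXCL8, or interleukin 8, was at 24.5, 1657, 2000.5 and 2075 CPM, 1.21-fold (1.19 to 1.23) higher, and CXCL1 at 22.8, 962, 1758 and 1721 CPM, 1.83-fold (1.79 to 1.86) higher. CXCL5, of the same family, was lower in siOCLN+LPS, at 6.29, 39.6, 18.7 and 24.0 CPM, 2.12-fold (1.84 to 2.43) lower, a call that ended with TMM scaling and with the trend of length and GC removed. CCL20, which recruits dendritic cells, was at 7.80, 406, 590.2 and 606 CPM.

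Among cytokines none of 14 tested was 2-fold higher and 1 was lower. IL6 came closest, at 136 CPM in LPS and 269 in siOCLN+LPS, beside 4.85 in control and 335 in the library labelled wtOCLN+LPS, 1.98-fold (1.87 to 2.09) higher on the ratio and 0.98 on the log2 scale with the pseudocount. With TMM scaling 2 of 14 passed. CSF1, the macrophage growth factor, was at 125, 832, 1359 and 1351 CPM, CSF3, the granulocyte factor, at 5.29, 337, 414 and 375 CPM, and CSF2 at 0.566, 51.8, 38.9 and 34.2 CPM. IL1B was at 0.189, 24.4, 24.5 and 22.8 CPM, with a ratio interval of 0.871 to 1.16. IL18, a cytokine stored as a precursor in epithelium, was at 34.7, 43.7, 20.5 and 22.3 CPM, 2.13-fold (1.87 to 2.44) lower, and within 2-fold with TMM scaling.

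The NF-kB system itself was mostly at the LPS level. NFKB1 was at 88.9, 463, 517 and 485 CPM, the inhibitor NFKBIA at 66.6, 699.9, 912 and 918 CPM and the deubiquitinase TNFAIP3, a brake on the pathway, at 61.6, 1242, 1183 and 1256 CPM. Of 19 genes 2 were higher and 1 lower, with a median of 0.01. TNFAIP2 was at 114, 1585, 3649 and 3328 CPM, 2.30-fold (2.27 to 2.34) higher, and BCL3, a nuclear partner of p50 and p52, at 60.3, 120.4, 259 and 264 CPM, 2.16-fold (2.04 to 2.28) higher. TNFAIP8 was at 31.2, 141, 66.0 and 62.2 CPM, 2.13-fold (1.98 to 2.29) lower, with LPS the highest of the libraries. TNFAIP8 lay within 2-fold with TMM scaling, and TNFAIP8 and BCL3 did with the trend of length and GC removed.

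On the sensing side 1 of 15 genes was higher, the LPS co-receptor CD14, at 5.99 CPM in LPS and 20.6 in siOCLN+LPS, beside 8.37 in control and 22.7 in the library labelled wtOCLN+LPS, 3.44-fold (2.70 to 4.42) higher. TLR4 was at 23.1, 26.2, 30.7 and 35.4 CPM. LY96, the TLR4 partner MD-2, had 0 counts in all 4 libraries. SERPINA3, an acute-phase protease inhibitor chosen after its values were seen, was at 0.944, 19.8, 115 and 106 CPM, 5.78-fold (5.09 to 6.58) higher.

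Several genes that stood higher in LPS than in control were lower in siOCLN+LPS than in LPS. Both comparisons use the same LPS library, so they are not independent. This holds for every gene described here or below as having its peak in LPS. TNFAIP6, which binds and remodels hyaluronan, was at 51.8 CPM in LPS and 3.43 in siOCLN+LPS, beside 2.39 in control and 4.34 in the library labelled wtOCLN+LPS, 15.1-fold (11.6 to 20) lower than in LPS. CD44, the hyaluronan receptor, was at 31.8, 65.5, 6.58 and 7.14 CPM, 9.96-fold (8.20 to 12.2) lower, so that siOCLN+LPS also lay below control. HAS3, a hyaluronan synthase, went the other way, at 8.56, 6.13, 23.4 and 21.4 CPM, 3.82-fold (3.02 to 4.88) higher. HAS2, another synthase, was under the filter at 0.818, 0.721, 0.572 and 1.09 CPM.

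PTX3, a soluble pattern recognition protein, was at 525 CPM in LPS and 136 in siOCLN+LPS, beside 7.36 in control and 113 in the library labelled wtOCLN+LPS, 3.87-fold (3.70 to 4.06) lower in siOCLN+LPS than in LPS. TNFSF14, the cytokine LIGHT, was at 4.72, 40.4, 5.38 and 5.09 CPM, 7.51-fold (6.02 to 9.44) lower. For both genes LPS was the highest library. C1S, a complement protease, was alike in LPS and control, at 48.2, 48.8, 10.6 and 20.7 CPM, 4.59-fold (3.89 to 5.42) lower. Of 15 secreted defence proteins 3 were lower and none higher. ICAM1, the leukocyte integrin ligand, stayed near LPS at 139, 1082, 1528 and 1445 CPM, and VCAM1, another such ligand, was at 0, 1.59, 4.52 and 3.14 CPM. In the list of leukocyte adhesion ligands 3 of 18 were higher and 4 lower.

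**Figure D4:**
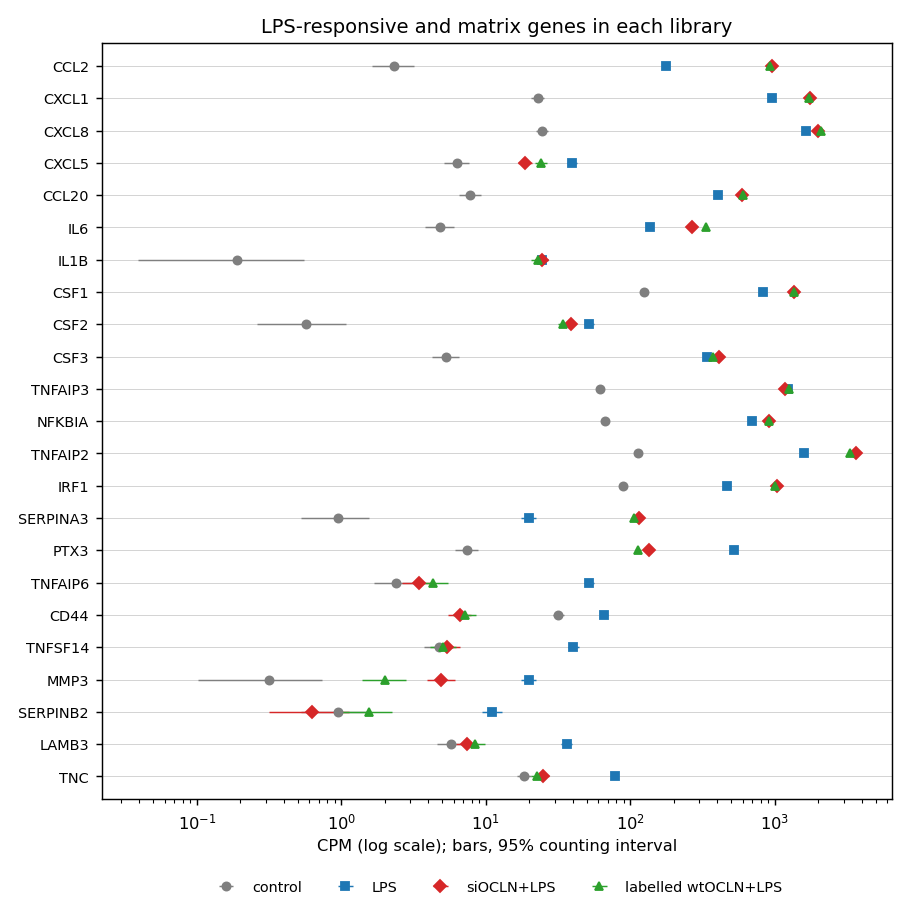
CPM on a log scale (horizontal axis) of 23 LPS-responsive and matrix genes (rows) in the 4 libraries, with bars for the exact Poisson 95% counting interval. CXCL8, NFKBIA and IL1B sit close together in the 3 LPS-treated libraries, CCL2 and SERPINA3 lie higher in both transfected libraries than in LPS, and TNFAIP6, PTX3 and TNFSF14 lie lower.

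Of 99 tested members of the barrier lists, 13 were higher (13.1%) and 10 lower (10.1%), beside 3.32% and 3.92% over all genes, with a median of -0.06 against -0.13. Tight junctions seal by claudin strands and by the MARVEL proteins occludin, tricellulin and MARVELD3, tied to actin by ZO proteins. Of 21 tight junction genes 1 was higher and 2 lower, with a median of -0.06. With TMM scaling the median was 0.08, against 0.01 over all genes. Beside OCLN, the lower gene was MARVELD2, tricellulin, which seals corners where 3 cells meet, at 9.81 CPM in LPS and 2.40 in siOCLN+LPS, beside 9.63 in control and 3.43 in the library labelled wtOCLN+LPS, 4.08-fold (2.87 to 5.91) lower. MARVELD3 was under the filter at 0.252, 0.361, 0.343 and 0.286 CPM. The scaffold TJP1, or ZO-1, was at 251, 225, 186 and 209 CPM. AMOT, an angiomotin that binds YAP, was at 3.40, 2.74, 6.58 and 4.11 CPM, 2.40-fold (1.65 to 3.56) higher, with siOCLN+LPS the highest of the libraries.

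Of 20 claudins 8 were tested. CLDN1, which stood higher in LPS than in control, was at 62.2, 398, 313 and 339 CPM, 1.27-fold (1.22 to 1.32) lower. CLDN12 was at 38.7, 38.8, 13.0 and 17.3 CPM, 2.97-fold (2.54 to 3.49) lower, and CLDN15, a pore-forming claudin, at 12.8, 13.1, 5.61 and 5.14 CPM. CLDN23 was at 2.33, 2.81, 0.629 and 2.00 CPM, on 39 and 11 counts. CLDN11 was the claudin that rose, at 15.7, 16.9, 51.8 and 66.6 CPM, 3.06-fold (2.64 to 3.54) higher. The claudins thus counted 3 lower and 1 higher, and with TMM scaling, where CLDN15 fell short, 2 lower and 1 higher.

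Of 14 adherens junction genes 2 were higher and 1 lower, and of 17 desmosome and hemidesmosome genes 1 was higher and 2 lower. In adherens junctions both classical epithelial cadherins were higher. CDH1, E-cadherin, went from 42.5 to 105 CPM, 2.47-fold (2.25 to 2.72) higher, and CDH3, P-cadherin, was at 23.3, 21.2, 44.2 and 41.5 CPM, 2.08-fold (1.82 to 2.39) higher. The anchored cadherin CDH13 was at 4.03, 3.25, 0.515 and 1.14 CPM, 6.30-fold (3.04 to 14.7) lower on 45 and 9 counts. DSG2, a desmosomal cadherin, was at 119, 113, 50.6 and 47.8 CPM, 2.23-fold (2.06 to 2.43) lower, and just short of 2-fold with TMM scaling. The hemidesmosomal integrin ITGB4 was at 357, 271, 572 and 557 CPM, 2.11-fold (2.03 to 2.19) higher, whereas LAMB3, a chain of its laminin ligand, was at 5.73, 36.3, 7.44 and 8.46 CPM, 4.89-fold (4.02 to 5.97) lower. LAMB3 was another gene with its peak in the LPS library.

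Simple-epithelial keratins were higher too, with KRT7, given above, within 2-fold. KRT8 was at 442, 372, 976 and 919 CPM, 2.63-fold (2.54 to 2.71) higher, and its filament partner KRT18 at 334, 254, 535 and 503 CPM, 2.11-fold (2.03 to 2.19) higher. KRT19 was at 5.41, 3.68, 24.8 and 18.3 CPM, 6.74-fold (5.03 to 9.19) higher. KRT23 went from 17 counts in LPS to 0 in siOCLN+LPS. With siOCLN+LPS set at the level of 3 counts it was 7.14-fold lower, leaving out the counting error of LPS. Of 14 keratins 3 were higher and 1 lower, with 9 above 0 and 5 below. KRT18 lay within 2-fold with the trend of length and GC removed. KRT8 and KRT18 have many processed copies in the genome, so reads shared with these could not be separated.

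Of 12 epithelial regulators 4 were higher and none lower, beside 3.32% and 3.92% over all genes. The list did not rise as a whole, with 5 members above 0 and 7 below. Its median was -0.10, against -0.13 over all genes. TP63, the basal cell factor p63, was at 2.01, 2.96, 12.2 and 21.1 CPM, 4.14-fold (2.95 to 5.94) higher. ELF3, an epithelial ETS factor induced by inflammation, was at 5.41, 234, 470.2 and 446 CPM, 2.01-fold (1.93 to 2.09) higher and within 2-fold with the trend of length and GC removed, and EHF at 4.47, 6.99, 16.8 and 13.1 CPM. Of 15 mesenchymal transition genes 2 were higher and 1 lower. The lower one was SNAI2, the repressor Slug, at 8.24, 7.57, 2.52 and 2.74 CPM, 3.01-fold (2.10 to 4.38) lower. ZEB1 was at 41.3, 35.8, 33.2 and 36.8 CPM. The higher ones were S100A4 and ACTA2. S100A4 was at 1.57, 1.30, 7.27 and 7.09 CPM, 5.60-fold (3.40 to 9.75) higher. ACTA2 had a log2 ratio of 1.04 and lay within 2-fold with the trend of length and GC removed. Some markers of alveolar cells moved too, with 3 of 7 tested higher, beside 3.32% over all genes, and 5 above 0 and 2 below. Only these 7 of 12 listed markers passed the filter at 1 CPM. Their median lay 0.89 above that of all genes, or 0.54 above it without the filter. The size of this median also depended on the pseudocount. CLIC5, a chloride channel protein, was at 2.96 CPM in LPS and 47.8 in siOCLN+LPS, beside 1.95 in control and 55.0 in the library labelled wtOCLN+LPS, 16.2-fold (11.8 to 22.7) higher, ABCA3, the surfactant lipid pump, at 18.6, 20.8, 47.7 and 40.2 CPM, and AQP5 at 0.503, 0.433, 2.86 and 2.91 CPM. The surfactant gene SFTPC, which defines type II cells, was at 0 counts in LPS and at 2 in siOCLN+LPS. The secretory mucin MUC5B was at 1.89, 2.16, 9.44 and 10 CPM, 4.36-fold (2.94 to 6.67) higher, and SCGB1A1, which defines club cells, was at 0 in all 4 libraries.

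Matrix and protease genes again held members with a peak in LPS. SERPINB2, an inhibitor of urokinase, was at 11.1 CPM in LPS and 0.629 in siOCLN+LPS, beside 0.944 in control and 1.54 in the library labelled wtOCLN+LPS, 17.6-fold (9.59 to 36.1) lower on 154 and 11 counts. SERPINE2, protease nexin 1, was at 8.31, 26.6, 7.72 and 7.20 CPM, 3.44-fold (2.82 to 4.23) lower. MMP3, stromelysin 1, was at 0.315, 19.8, 4.92 and 2.00 CPM, 4.03-fold (3.15 to 5.20) lower, and TNC, tenascin C, at 18.4, 77.8, 24.9 and 22.6 CPM, 3.12-fold (2.79 to 3.49) lower. The plasminogen activators lay on the other side, with PLAT at 21.4, 37.6, 83.0 and 66.5 CPM, 2.21-fold (1.99 to 2.44) higher, and PLAU at 147, 398, 739 and 707 CPM, 1.86-fold (1.80 to 1.92) higher. NPNT, nephronectin, an integrin ligand of basement membranes, was at 3.21, 3.75, 53.3 and 56.8 CPM, 14.2-fold (10.8 to 19.2) higher. LAMA5, a laminin chain of airway basement membrane, was at 626, 564, 1172 and 1226 CPM, and its call ended with the trend of length and GC removed. Over all 58 tested members of the matrix lists 4 were higher and 4 lower, 6.90% each way beside 3.32% and 3.92% over all genes.

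Of 95 tested members of the signalling lists, 12 were higher (12.6%) and 6 lower (6.32%), beside 3.32% and 3.92% over all genes. In the BMP pathway SMAD factors induce ID genes and inhibitory SMADs. Of 14 tested members 4 were higher and 1 lower, with a median of 0.54, or 0.67 above that of all genes. Without the filter at 1 CPM it was 0.08 above all genes. ID1, an inhibitor of differentiation factors, was at 40.5 CPM in LPS and 161 in siOCLN+LPS, beside 69.4 in control and 201 in the library labelled wtOCLN+LPS, 3.97-fold (3.63 to 4.36) higher. ID3 was at 38.3, 56.2, 126 and 135 CPM, 2.25-fold (2.07 to 2.45) higher, and just short of 2-fold with the trend of length and GC removed. ATOH8, a BMP-responsive factor, was at 11.1, 9.59, 88.6 and 82.1 CPM, 9.24-fold (7.74 to 11.1) higher, and SMAD6 at 0.315, 0.649, 2.92 and 3.71 CPM, on 9 and 51 counts. GREM1, a secreted BMP antagonist, was at 2.96, 3.46, 0.343 and 0.0571 CPM, 10.1-fold (4.31 to 28.8) lower on 48 and 6 counts. SMAD7 was at 6.86, 6.13, 6.01 and 5.77 CPM, within counting error of equal.

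Of 26 YAP and TAZ targets 4 were higher and none lower, where 3.32% of all genes were higher and 3.92% lower. CTGF was at 478, 611, 1625 and 1701 CPM, 2.66-fold (2.60 to 2.72) higher, and ANKRD1 at 5.98, 7.36, 44.3 and 70.7 CPM, 6.03-fold (4.90 to 7.49) higher. EDN1, endothelin 1, was at 3.65, 21.2, 62.8 and 75.8 CPM. CYR61, the standard target beside CTGF, was at 584, 919, 783 and 983 CPM, 1.17-fold (1.15 to 1.20) lower and within 2-fold. Immediate early factors leaned lower, with 3 of 23 lower, none higher and a median of -0.44. FOSB was at 39.3, 69.6, 28.3 and 35.4 CPM, 2.46-fold (2.20 to 2.74) lower, whereas FOS was at 45.9, 29.3, 29.8 and 33.0 CPM and EGR1 at 585, 380.2, 438 and 345 CPM. In feedback on ERK signalling SPRY4 was at 86.7, 96.8, 38.4 and 39.0 CPM, 2.52-fold (2.30 to 2.77) lower, and SPRY1 at 4.03, 1.95, 9.38 and 8.29 CPM, 4.82-fold (3.19 to 7.54) higher. Of 9 tested Notch genes 2 were higher and 1 lower, with 5 above 0 and 4 below. The higher ones were the ligands DLL1, at 3.84, 4.54, 12.9 and 12.5 CPM, and JAG2, at 19.2, 9.81, 20.7 and 20.2 CPM. For JAG2, siOCLN+LPS lay close to control and LPS was the lowest library. The Notch target NRARP was at 9.82, 10.2, 4.41 and 6.06 CPM, 2.32-fold (1.75 to 3.11) lower. JAG2 lay within 2-fold with the trend of length and GC removed and NRARP with TMM scaling.

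Of 165 tested members of the metabolism lists, 10 were higher (6.06%) and 5 lower (3.03%), beside 3.32% and 3.92% over all genes. Respiratory chain genes lay slightly higher as a group. Of 38 complex I genes 35 were above 0 on the log2 scale and 3 passed 2-fold, with a median of 0.43 against -0.13 over all genes. These transcripts are short, and short transcripts had the higher ratios here. With the trend of length and GC removed the median of complex I was 0.33, against -0.12 over all genes, and 1 gene passed. NDUFB1, an accessory subunit, was at 15.5, 13.8, 31.9 and 27.7 CPM, 2.30-fold (1.95 to 2.73) higher. In complex V all 15 members were above 0 with a median of 0.57, and ATP5I passed 2-fold at 22.5, 20.2, 45.9 and 39.2 CPM. No length was matched for complex V under its older symbols, so its correction is void. Complexes II and III had a median of 0.10 and no member past 2-fold.

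Of 28 glycolysis and hypoxia genes 3 were higher and none lower, beside 3.32% and 3.92% over all genes. LDHA, lactate dehydrogenase, was at 344, 344, 709 and 755 CPM, 2.06-fold (1.99 to 2.13) higher. NDRG1 was at 131, 97.9, 217 and 229.7 CPM, 2.22-fold (2.08 to 2.36) higher, and CA9, a carbonic anhydrase that hypoxia induces, at 1.38, 1.08, 8.01 and 8.74 CPM, 7.41-fold (4.34 to 13.6) higher on 15 and 140 counts. SLC2A1, the glucose transporter GLUT1 and also a hypoxia target, was at 182, 171, 137 and 152 CPM. Among metallothioneins, which bind zinc and copper, and zinc transporters 2 of 15 were higher and 1 lower. MT1X was at 188, 273, 757 and 742 CPM, 2.77-fold (2.67 to 2.87) higher, and MT2A, within 2-fold, at 725, 1095, 1743 and 1607 CPM. SLC30A1, the zinc exporter that the same metal-responsive factor drives, was at 98.0, 58.9, 14.7 and 23.7 CPM, 4.01-fold (3.48 to 4.63) lower. The metallothionein genes are near-identical in part, so the share of each is uncertain. Among 26 cholesterol and fatty acid genes 1 was higher, near the share over all genes. It was FASN, which makes fatty acids, at 1001, 869.6, 1833 and 1875 CPM.

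Proliferation genes stayed near the share of all genes, with 4 of 91 tested members lower (4.40%) and 1 higher (1.10%), beside 3.92% and 3.32%. Of 27 mitosis genes 3 were above 0 and 1 passed 2-fold, with a median of -0.32, or -0.23 with the trend of length and GC removed. CDCA8, a subunit of the chromosomal passenger complex, was at 78.2, 64.3, 31.5 and 29.8 CPM, 2.04-fold (1.83 to 2.27) lower, and with TMM scaling no mitosis gene passed. Of 25 replication and G1/S genes 2 were lower, with a median of -0.12 against -0.13 over all genes. CCND1, cyclin D1, was at 196, 216, 91.4 and 124 CPM, 2.37-fold (2.23 to 2.52) lower, and E2F2 at 65.0, 63.0, 24.0 and 28.3 CPM, 2.62-fold (2.33 to 2.95) lower. The CDK inhibitor CDKN1A was at 346, 427, 669 and 642 CPM, 1.57-fold (1.52 to 1.62) higher. BMF, a pro-apoptotic BH3 protein, was at 6.55, 3.46, 20.7 and 12.1 CPM, 5.97-fold (4.41 to 8.24) higher, with siOCLN+LPS the highest library. ZMAT3, a p53 target, was at 53.6, 52.3, 18.02 and 18.8 CPM, 2.90-fold (2.54 to 3.32) lower.

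The machinery that a small interfering RNA uses was not raised. Of 13 tested RNA interference genes none passed 2-fold and 1 was above 0, where 39.2% of all genes were above 0. The median was -0.40 against -0.13 over all genes. With TMM scaling it was -0.25 against 0.01. AGO2, the Argonaute that cuts, was at 173, 235, 132 and 113 CPM, 1.78-fold (1.69 to 1.88) lower. DICER1, which makes small RNAs, was at 144, 155, 109.5 and 99.9 CPM and DROSHA at 104, 99.7, 79.1 and 72.9 CPM. Of 20 replication-dependent histone genes 2 were higher, beside 3.32% of all genes. HIST1H1E was at 4.53, 4.11, 17.9 and 22.7 CPM, 4.36-fold (3.28 to 5.88) higher. None of 15 common reference genes passed 2-fold. GAPDH was at 2013, 1837, 2416 and 2404 CPM, 1.32-fold (1.29 to 1.34) higher, and ACTB at 4557, 4262, 5675 and 6011 CPM, 1.33-fold (1.32 to 1.35) higher.

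**Figure D5:**
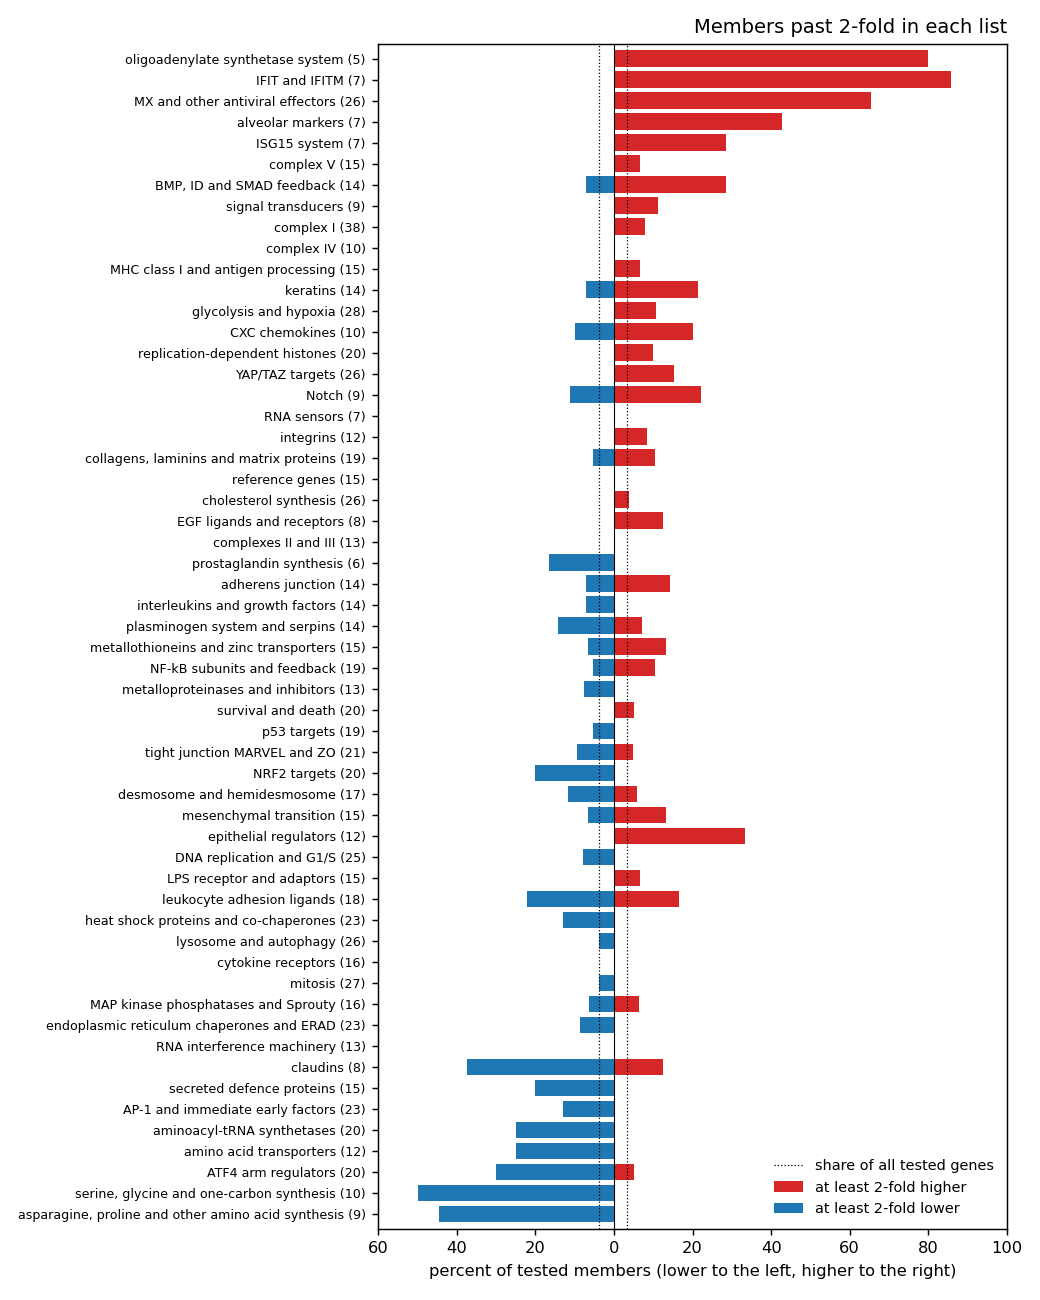
Percent of tested members at least 2-fold higher (red, to the right) or lower (blue, to the left) in siOCLN+LPS than in LPS, for lists of 5 or more tested genes (rows, number tested in parentheses), ordered from the highest median log2 ratio at the top. Dotted lines mark 3.32% and 3.92%, the shares over all tested genes; antiviral lists lie at the top and amino acid lists at the bottom.

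Of the 12 genes with the highest log2 ratio at 5 CPM or more, the interferon members were IFI27, IFI6, OAS2, MX1 and ISG15. Several others stood low in control and LPS. ADGRF5, an adhesion receptor that restrains surfactant in alveolar type II cells, was at 0.793 CPM in LPS and 31.5 in siOCLN+LPS, beside 0.189 in control and 28.3 in the library labelled wtOCLN+LPS, 39.7-fold (22.0 to 79.9) higher on 11 and 550 counts. IGFL1, a secreted protein related to insulin-like growth factors, was at 3.59, 10.4, 162 and 155 CPM, 15.6-fold (13.2 to 18.5) higher. GUCY1A2, a subunit of the nitric oxide receptor guanylate cyclase, was at 4.28, 3.17, 49.8 and 40.6 CPM, 15.7-fold (11.6 to 21.8) higher. ADAMTS8, a metalloproteinase, was at 0.441, 0.505, 9.96 and 9.77 CPM, 19.7-fold (9.37 to 49.8) higher. In each of these the transfected libraries lay together and far above the others.

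The 12 genes with the lowest log2 ratio included ASNS, NUPR1, HSPA6, TNFAIP6, CD44, SERPINB2 and TNFSF14. FAM133DP, a pseudogene with near-identical copies whose level is therefore uncertain, went from 266 counts in LPS to 0 in siOCLN+LPS. With siOCLN+LPS set at the level of 3 counts it was 112-fold lower, a figure that leaves out the counting error of LPS. GPRC5B, an orphan receptor, was at 8.51 CPM in LPS and 0.286 in siOCLN+LPS, beside 1.95 in control and 0.343 in the library labelled wtOCLN+LPS, 29.7-fold (12.4 to 93.3) lower on 118 and 5 counts. YPEL2 was at 7.36, 12.2, 0.801 and 1.83 CPM, 15.2-fold (8.82 to 28.4) lower, and C11orf96 at 2.52, 16.1, 1.37 and 1.71 CPM, 11.7-fold (7.67 to 18.7) lower. WNK4, a kinase that controls ion transport, was at 12.6, 12.1, 1.20 and 2.06 CPM, 10.1-fold (6.39 to 16.7) lower. GPRC5B, YPEL2 and C11orf96 were higher in LPS than in control, and WNK4 was not.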

How the data were processed

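RNA was sequenced from BEAS-2B cells with a directional kit and without replicates, per the labels' protocols. The deposited values were whole-number counts for 24424 gene symbols in each of 4 libraries. The submitters' processing notes name TopHat, Cufflinks and hg19, with no version or role for the tools. How reads were counted, with which strand setting and annotation, is not given in the sources used here, so overlapping, antisense and near-identical genes are uncertain. CPM came from library totals. Genes at 1 CPM in either library were tested, a gene was called at 2-fold on log2(CPM + 1), and folds carry Clopper-Pearson intervals from SciPy 1.17.1 (Python 3.11.15). With 1 library per group no count test was run, and edgeR 4.0.16 (R 4.3.3) served for TMM and upper quartile factors only. The members and the 63 gene lists were chosen with earlier results of these data known. Named genes were OCLN, the 12 highest and 12 lowest log2 ratios at 5 CPM or more without readthrough and small RNA symbols, and up to 6 members per list with the largest changes at 5 CPM or more, plus members that show which arm of a pathway moved; list members under 5 CPM, CD68, CREBRF and SERPINA3 were chosen after their values were seen. Promoters came from the RefSeq table for GRCh38.p14, where 10677 of 13505 tested genes matched by symbol. Transcript length and GC came from GENCODE transcripts for 94.5% of tested genes. Other settings tried were 3 further scalings, 2 pseudocounts, 2 filters, 2 thresholds, the counting interval, readthrough symbols left out, control as reference, and the trend of length and GC removed. The ratio, call and interval steps were tested on simulated data, and the list summaries were not.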

Additional observations from a re-analysis of the deposited data

How the results depend on the processing

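No paired analysis was possible because each group held 1 library, and leaving out a replicate was not possible for the same reason. Against 449 higher and 530 lower genes at 2-fold, a threshold of 1.5-fold gave 1227 and 2061 and a threshold of 3-fold gave 123 and 105. A pseudocount of 5 CPM gave 226 and 189, a pseudocount of 0.1 CPM gave 607 and 932, and a counting interval wholly beyond 2-fold left 310 and 347. A filter at 5 CPM gave 356 and 382, and the control library as reference gave 535 and 739. The 31 raised interferon members became 16 at 3-fold and 27 to 44 under the other settings. The 25 lowered stress response members became 44 at 1.5-fold, 7 at 3-fold, 18 with the counting interval and 19 to 28 under the other settings. The median of the claudins relative to all genes changed sign with the filter at 5 CPM, to 0.11, where fewer claudins were tested; among 56 lists it was the 1 median at least 0.1 from all genes that did so, and 36 values of list medians moved by more than 0.1 against 408 that did not. Of 346 genes followed singly, 3 changed sign under another scaling or pseudocount, none of them past 2-fold and the largest at 0.14 from 0 on the log2 scale. Of the values of these genes under those settings, 626 lay outside the gene's own counting interval and 1104 within it. The printed intervals therefore do not cover the choice of scaling or pseudocount. Depth limited genes under about 1 CPM. For the comparison as a whole the spread between cultures was not measured, so that no count here carries an error beyond counting, and a difference from LPS alone is a difference of siRNA and transfection together.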

Other observations

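Few genes set the siRNA library apart from all others. Among genes at 5 CPM or more, 2 lay at least 2-fold below each of the other 3 libraries in siOCLN+LPS and none lay 2-fold above all 3. They were chosen after their values were seen. CREBRF, a regulator of CREB3 in the unfolded protein response, was at 9.73 CPM in siOCLN+LPS, against 38.0 for control, 39.8 for LPS and 24.0 for labelled wtOCLN+LPS, on 170, 604, 552 and 420 counts. FAM133DP, a pseudogene with near-identical copies, had 0, 233, 266 and 57 counts in the same order. OCLN was not among them, since the library labelled wtOCLN+LPS, at 29.7 CPM, was within 2-fold of the 21.0 CPM of siOCLN+LPS.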
